A study of Daphnia magna with 20 samples.

Results

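Whole juveniles (J) and late embryos (E3) of the water flea *Daphnia magna* were compared across the step from the brood pouch to free swimming and feeding. The comparison used the 3 arrays labelled JUV and the 3 arrays labelled EGGS 3, 6 of the 20 arrays that cover 7 life stages. J animals were 4 days old, of the fourth instar and without a visible ovary, and had been fed the green alga *Chlorella vulgaris*. E3 embryos had developed for 60 h, could already swim and were taken in the last hours before release by the mother, without having fed. Both stages were of 1 laboratory clone, reproducing without males, so all 6 arrays share a genotype. All were labelled as female and as whole body. The study calls the replicates biological. The number of animals pooled per array, and whether each replicate had its own culture, are not given in the sources used here. The p-values therefore measure the spread between replicate arrays only, pooled over the 7 stages. The other stages were early embryos (E1), labelled as under 12 h of development, and adult females that had just moulted (F1, 15 days old), were midway to the next moult (F2, 16 days) or close to it (F3, 18 days), with 3 arrays each, and adult males (M), labelled as 16 days old, with 2 arrays. Females had been flushed of the embryos in their brood pouch before collection, and males were the offspring of females exposed to methyl farnesoate.

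Daphnids develop in the brood pouch on yolk laid down by the mother and are released as small animals of adult form. From then on they filter algae from the water, digest them in the gut and grow by moulting, which replaces the chitin and protein cuticle at each instar. In arthropods, transcripts for cuticle proteins are well known to come and go within each moult cycle, and those for digestive enzymes are abundant in feeding animals. The ovary matures over the juvenile instars, and yolk proteins are then made in large amounts in adult females.

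The array held 162718 probes for 41316 gene models, which are assembled transcripts, most with 4 probes of different sequence. A probe was tested where it was brighter than 95% of the random probes, which have computer-made sequences, on every array of at least 1 of the 7 stages. This left 76235 probes of 28459 gene models. The study's own annotation of the gene models was not used here, and 0 of them matched the 28335 genes of the RefSeq table at hand. They are therefore given by their array identifiers, without position, sequence or function, and lists of cuticle, digestive or other genes were not analysed here. Values below are log2 signals after background correction and quantile normalization, and each difference is J minus E3.

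The J arrays resembled each other more than the E3 arrays did. Over the tested probes, the J arrays correlated with each other at 0.981 to 0.985. E3 replicates 1 and 3 correlated at 0.965, whereas replicate 2 correlated with them at 0.882 and 0.910. The median standard deviation was 0.203 over the J arrays and 0.479 over the E3 arrays, but 0.197 over E3 replicates 1 and 3 alone. E3 replicate 2 lay on slide 1, whose 4 arrays had the lowest shares of probes above background in the series. It had 27.7% of its probes above background, against 43.5 to 46% on the J arrays and 38.5 and 40% on the other E3 arrays. J replicates 1 and 3 lay together on slide 2, and J replicate 2 and E3 replicate 1 lay together on slide 5, the only slide with both stages. The numbers of called probes and of probes detected in only 1 of the stages are given with and without E3 replicate 2. Other results use all 3 E3 arrays unless stated.

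Between J and E3, 25881 of the 76235 tested probes (33.9%) passed an adjusted p of 0.05 in limma and changed at least 1.5-fold. Of these, 15750 (20.7% of those tested) were higher and 10131 (13.3%) were lower in J. The median change was 3.51-fold among the higher probes, and among the lower probes E3 exceeded J by a median of 3.08-fold. The values of the J and E3 arrays did not overlap for 97.8% of the called probes, against 56.9% of all tested probes. In whole animals, fewer cells of a type and less RNA per cell cannot be told apart. Without E3 replicate 2, 23557 probes were called, 13960 higher and 9597 lower. The median difference of all tested probes was then 0.09, against 0.26 with all arrays. Of the calls made with all arrays, 81.1% were made again in the same direction, and 0 turned to the opposite one. Within slide 5, the median difference between J replicate 2 and E3 replicate 1 was 1.47 for the higher probes, -1.61 for the lower ones and 0.07 for all tested probes, with both arrays among those that chose the probes.

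The same calls were counted over the random probes, on which the background was set. Few of them passed the filter, 137 of 2532, against 76235 of 162718 gene-model probes. Of the 137, 35 (25.5%) were called, 15 higher (10.9%) and 20 lower (14.6%) in J. At least 4-fold changes were called for 20.4% of the 137, against 13.8% of the tested gene-model probes, and at least 16-fold changes for 2.92%, against 3.12%. Among probes bright enough to be tested, calls were thus also made without a designed target. The filter was set on the random probes themselves, so it largely fixed how few of them could be called.

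**Figure D1:**
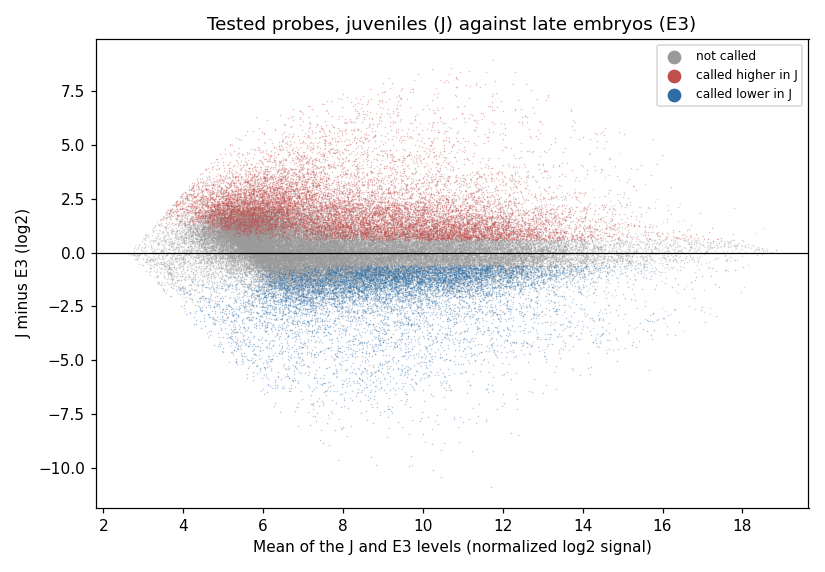
Each point is 1 of the 76235 tested probes, with the mean of its J and E3 levels (normalized log2 signal) on the x axis and J minus E3 (log2) on the y axis. The 15750 probes called higher in J and the 10131 called lower reach changes of 8.96 and -10.89, and grey points are not called.

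The direction of a call is relative to the rest of the array. On the normalized scale, the 4 E1A spike-in controls that were well above background on every array stood at 15.94, 16.02 and 16.25 on the J arrays, against 14.26, 14.02 and 14.54 on the E3 arrays. The spike-ins were thus higher on every J array than on any E3 array, by 1.80 on average and by 1.67 without E3 replicate 2. When arrays were scaled to these spike-ins in place of quantile normalization, the median difference of all tested probes moved to -1.40, against 0.26, and 1389 probes were called higher and 19926 lower in J. The amounts of spike-in added are not given in the sources used here. Under that scaling J stayed above E3 for 58.1% of the probes called higher. A shift of that size towards lower values in J could not turn the probes called lower, nor those at least 16-fold higher.

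Large changes were frequent in both directions. At least 4-fold changes were called for 6710 probes higher in J (8.8%) and 3813 lower (5%). At least 16-fold changes were called for 1183 higher (1.55%) and 1193 lower (1.56%), and at least 64-fold changes for 262 and 274. The probes at least 16-fold higher belonged to 586 gene models and those at least 16-fold lower to 549. The median level of the 1183 probes was 11.24, 11.07 and 11.17 on the J arrays and 6.14, 4.94 and 6.43 on the E3 arrays. The 1193 probes had median levels of 6.62, 5.60 and 5.53 on the J arrays and 11.67, 11.45 and 11.21 on the E3 arrays. These levels describe the sets, since the difference chose their probes. They were thus dim in 1 stage and bright in the other, and among the higher probes E3 replicate 2 was the dimmest array.

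Few probes could be called unchanged. The 95% interval of the difference lay within 1.5-fold in both directions for 1978 probes (2.59% of those tested), and 64 gene models had at least 2 tested probes that all met this limit. Another 48376 probes (63.5%) were neither called nor held within 1.5-fold, so for most probes the 6 arrays did not settle whether J and E3 differed by that amount.

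At the level of gene models, 12358 of 28459 (43.4%) had at least 1 called probe. At least 1 probe was higher in J for 7382 gene models (25.9%) and lower for 5141 (18.1%). Both counts include 165 gene models (0.58%) with probes called in both directions. Of the tested gene models, 7098 had only 1 tested probe, so they could not have 2 calls. At least 2 probes were called higher for 4241 gene models and lower for 2603, and no gene model had 2 probes called each way. Of the 6937 gene models with at least 2 called probes, 97.6% had all of them called the same way. Probes of a gene model were read on the same arrays, so they repeat the sequence and not the sample.

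Where every probe was called, the probes also gave similar sizes. There were 5285 gene models with 2 tested probes, 5737 with 3 and 10339 with 4. Among these, all tested probes were called higher for 2318 gene models and lower for 1409. The median range of the difference over the probes of such a gene model was 0.51 on the log2 scale, and the range exceeded 1 for 972 of them. Of 10339 gene models with 4 tested probes, 1419 had all 4 called higher and 819 had all 4 called lower. All tested probes, at least 2, were at least 16-fold higher for 144 gene models and at least 16-fold lower for 202.

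The 165 gene models with opposite calls were mostly pairs of single probes. Of these, 93 had 2 called probes, 53 had 3 and 19 had 4. The median gap between the highest and the lowest probe was 3.42 on the log2 scale, 61 had a gap of at least 4, and in 22 the opposite probes each changed at least 4-fold. The probes of such a gene model cannot both stand for 1 transcript level.

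Gene models whose identifiers differ only in the final number share a locus name. Of 425 such loci with at least 2 called gene models, 345 (81.2%) had all of them called the same way, 205 higher and 140 lower, and 80 had both directions. The share that unrelated called gene models would give was not tested. The locus with the most tested gene models, dmag2vel4f4xincok59Loc14 (chosen for its size), had 48. Of these, 13 had called probes only higher in J and 12 only lower, beside 7217 and 4976 of all 28459 tested gene models. Of its 122 tested probes, 19 were higher and 25 were lower, beside 20.7 and 13.3% of all tested probes, with called differences up to 6.90 and down to -6.46. Related sequences can share signal on an array, so its gene models are uncertain one by one.

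Detection was uneven between the stages, and so was its limit. The background set by the random probes was 5.30, 4.84 and 5.19 on the J arrays (log2, before quantile normalization). On the E3 arrays it was higher, at 5.83, 6.34 and 6.09, and its part in the following counts was not tested. Above background on all J arrays and on 0 E3 arrays were 7743 probes, whereas 656 were above background on all E3 arrays and on 0 J arrays. Another 40105 were above background on all 6. The second count depended on E3 replicate 2, since without that array the counts were 8096 and 2328. By the scanner's own flag for signals well above background the counts were 3769 and 248. Of the probes detected only in J, 49.0% were called higher, with a median difference of 1.61. Of the probes detected only in E3, 94.7% were called lower, with a median difference of -3.91. Detection and difference were read on the same arrays, so these shares describe the sets and test nothing. Among the called probes, 2306 of the higher (14.6%) were not well above background on any E3 array and 626 of the lower (6.18%) were not well above background on any J array, so their fold changes are only bounds.

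The calls in each direction changed with brightness. The tested probes were divided by mean level into 5 groups of 15247. In the dimmest group, 19.7% were called higher and 3.43% lower in J. In the middle group 19.6% were higher and 14.9% lower, and in the brightest group 23.2% were higher and 18.9% lower. The median difference of all probes was 0.91 in the dimmest group and 0.33 in the next, and lay between -0.02 and 0.02 in the 3 brighter groups. The excess of higher over lower calls was therefore largest among dim probes. The E3 arrays also had fewer probes above background than the J arrays, E3 replicate 2 fewest of all, and the part of this in the excess was not tested.

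**Figure D2:**
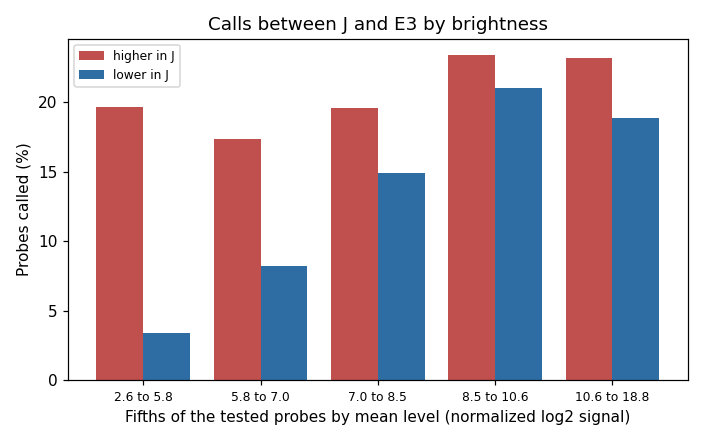
Bars give the share of probes called higher and lower in J (%) in 5 groups of equal number, ordered on the x axis by the mean level over J and E3 (normalized log2 signal). Calls of higher probes range from 17.4 to 23.4%, and calls of lower probes from 3.43% in the dimmest group to 21% in the fourth.

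At least 3 probes were tested for the 5737 gene models with 3 and the 10339 with 4. Among these, 1471 had every probe higher and 860 every probe lower in J, with and without E3 replicate 2. The 2 in each direction whose weakest probe changed most are described here by that probe.

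With all arrays, the gene model velh8ptr075k87Loc34t5 ranked first among those raised. Its weakest probe stood at 16.38, 16.05 and 16.13 on the J arrays, against 9.35, 5.67 and 9.93 on the E3 arrays. The groups were far apart, and E3 replicate 2 was the lowest array. On that array the probe was not well above background, and the rank includes it. The difference was 7.87 (SE 0.94, limma adjusted p = 1.45e-05), and its 4 probes ranged from 7.87 to 8.60. Without E3 replicate 2 the difference was 6.54 and the 4 probes ranged from 6.54 to 6.90. The call was lost under the methods' t-test, whose unadjusted p was 0.00417 at a limit of 0.001. Within slide 5, J exceeded E3 by 6.70. This gene model was near the top of the signal range in all 3 female stages, at 16.76 ± 0.05 in F1, 16.90 ± 0.16 in F2 and 17.09 ± 0.07 in F3 (SD, n = 3 each). It was lower in males, at 12.10 ± 1.05 (SD, n = 2), and in early embryos, at 13.12 ± 1.98 (SD, n = 3).

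A similar course was seen for veln4ptf094k29Loc1t50. Its weakest probe stood at 15.70, 15.25 and 15.51 on the J arrays, against 8.84, 4.85 and 9.19 on the E3 arrays, again without overlap. The difference was 7.86 (SE 0.87, limma adjusted p = 7.35e-06), and it was 6.47 without E3 replicate 2, on which the probe was likewise not well above background. The methods' t-test gave an unadjusted p of 0.00492, and the call was lost. The female stages lay at 15.85 ± 0.15 in F1, 16.30 ± 0.11 in F2 and 16.56 ± 0.05 in F3, above males at 11.07 and early embryos at 11.83 ± 1.56. In both gene models, every female array was above every embryo and male array.

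Among those lowered, the first was dmag2vel4f4xincok49Loc4924t1. Its weakest probe stood at 4.38, 2.70 and 4.40 on the J arrays, not well above background on any, against 12.70, 12.16 and 12.27 on the E3 arrays. It was at least 294.9-fold lower in J, with a measured difference of -8.55 (SE 1.04, limma adjusted p = 1.76e-05), and all 4 probes ranged from -8.55 to -9.90. That bound sets the mean of the E3 arrays against a floor for each J array, the dimmest signal that the array's flags placed well above background, or the signal of the probe itself where it was higher. The E3 replicates lay close together, and the difference was -8.66 without replicate 2. This gene model was low in early embryos, at 5.25 ± 1.94, and in F1, at 4.07 ± 1.30, but bright in F2, at 10.36 ± 0.53, and in F3, at 9.60 ± 1.39 (SD, n = 3 each).

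The same course was shared by velb9ptf041k77Loc42t1, with 3 tested probes. Its weakest probe stood at 2.95, 3.83 and 4.18 on the J arrays, not well above background on any, against 12.19, 11.83 and 11.75 on the E3 arrays. It was at least 275.3-fold lower in J, with a measured difference of -8.27 (SE 0.84, limma adjusted p = 3.38e-06), and its probes ranged from -8.27 to -9.20. It averaged 4.51 ± 1.17 in E1, 4.59 ± 1.64 in F1, 9.93 ± 0.34 in F2 and 10.04 ± 1.31 in F3. In both lowered gene models all 6 arrays of F2 and F3 were thus above all arrays of J, F1 and E1. Males stood at 2.82 and 6.57 for the first and at 5.73 and 8.16 for the second. Their level depended on the probe. At the probe that changed most, males stood at 9.77 and 10.27 for the first and at 10.21 and 11.10 for the second. Under spike-in scaling, whose shift was too small to turn them, the 4 differences were 6.33, 6.10, -10.80 and -10.79 in the order given.

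**Figure D3:**
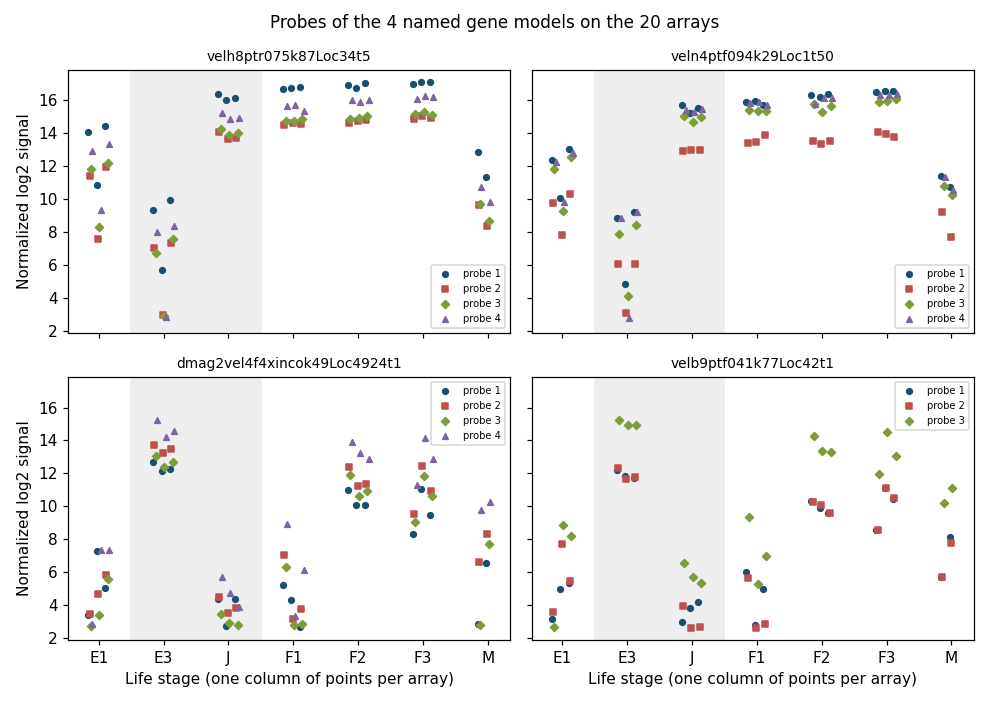
Normalized log2 signal of each tested probe (marker shape and colour) of the 4 gene models on each of the 20 arrays, by life stage, with E3 and J shaded. The upper 2 gene models are low in E3 and high in J and all female stages, and the lower 2 are high in E3, F2 and F3 and low in J, F1 and E1.

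Counts over the first 12 gene models in each direction, chosen by the same criteria and including the 2 described, gave the following. Of the 12 with the largest rise of the weakest probe, most probes were nearer the J than the E3 level in F1 for 12, in F2 for 10, in F3 for 10, in E1 for 4 and in M for 3. Of the 12 with the largest fall, most probes were nearer the J level in E1 for 12 and in F1 for 12, but in F2 and F3 for 0, and in M for 4.

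The level of all called probes was then followed through the stages that had no part in choosing them, other than through the filter, the normalization and the shared estimate of spread. Probes higher in J were nearer the J than the E3 level in F1 for 91%, in F2 for 79.7% and in F3 for 82.8% of the 15750 probes. They were so for 74.2% in E1 and 53.7% in M. For probes not called but with a higher mean in J, these shares were 57.4% in F1, 58.1% in F2, 60.6% in F3, 58.4% in E1 and 37.9% in M. Probes lower in J were nearer the J level for 91.4% in F1, 68.4% in F2, 68.6% in F3, 72.7% in E1 and 59.2% in M. For probes not called with a lower mean in J the shares were 68.1, 64.4, 66, 58.7 and 68.8% in the same order. F1 females were thus the stage that most often stayed at the juvenile level in both sets.

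With all 3 E3 arrays in its mean, E3 was more often than J the stage at the end of the range. On the higher probes the median of E3 replicate 2 lay at -1.13 from the midpoint of the J and E3 levels. It lay at -0.65 and -0.76 for replicates 1 and 3. On the lower probes the E3 arrays lay at 0.84, 0.84 and 0.80. The part of replicate 2 in the following shares was not tested. Among the probes higher in J, E3 had the lowest mean of the 7 stages for 10862 (69%), against 25.3% of the probes not called with a higher mean in J. J had the highest mean for 1432 (9.09%), against 17.7%. The highest mean was that of E1 for 38.9%, close to the 36.5% of those not called, and that of F3 for 34.9%, against 18.7%. Among the probes lower in J, E3 had the highest mean for 6482 (64%), against 35.8% of the probes not called with a lower mean in J, and J had the lowest for 1353 (13.4%), against 8.56%. E1 was lowest for 41.6%, against 36%. All 5 other stages were nearer J than E3 for 5590 of the higher probes (35.5%), against 13% of those not called, and for 3199 of the lower (31.6%), against 25.5%. A further 3990 of the higher probes (25.3%) were near J in early embryos and all females but nearer E3 in males, against 14.8% of those not called. The same held for 8.65% of the lower probes, against 6.44%.

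Among the probes higher in J, the strongest changes departed from the whole set most clearly in early embryos. In E1, 41.8% of the 1183 probes at least 16-fold higher were nearer J, against 74.2% of all 15750. In M the shares were 40.4 and 53.7%. They were 94.9 and 91% in F1, 83.7 and 79.7% in F2, and 81.1 and 82.8% in F3. On the arrays of each stage, the median of the 1183 probes at least 16-fold higher in J lay 3.37 to 3.53 above the midpoint of the J and E3 levels in F1, 3.35 to 3.51 in F2 and 3.56 to 3.77 in F3. On the J arrays themselves it lay 2.45 to 2.63 above that midpoint, so the female arrays were higher still. The same order held for all 15750 higher probes. Their median lay 0.86 to 0.94 above the midpoint on the J arrays and 1.01 to 1.47 on the female arrays. In males the median of the 1183 probes lay at 0.11 and -0.65, and in early embryos at -0.02, -1.58 and 0.37. The F3 stage had the highest mean for 62.2% of the 1183 probes. It had so for 34.9% of all higher probes and 18.7% of those not called with a higher mean in J. Of the 1183, 38.4% were near J in all females but nearer E3 in early embryos, against 14.2 and 11.3% in the same order.

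In the fit of all arrays, 994 of the 1183 probes (84%) were lower in E1 than in F1. Of all probes higher in J, 30.8% were, and of all tested probes 25.4%. In M, 786 of the 1183 (66.4%) were lower than in F1, against 42.9 and 20.4% in the same order. Fewer, 148 (12.5%), were lower in F2 than in F1, against 3.73% of all tested probes, and 0 were higher. At an adjusted p of 0.05 and 1.5-fold, 239 (20.2%) were lower and 11 higher in F3 than in F1, against 9.19 and 7.39% of all tested probes. At the median, the probes that rose most steeply between late embryo and juvenile thus lay above the juvenile level in all 3 female stages, and most were lower in early embryos and in males than in F1 females, with median differences of -3.94 and -3.58.

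The 1193 probes at least 16-fold lower in J followed another course. Their median lay 2.42 to 2.76 above the midpoint on the E3 arrays and between -2.97 and -2.09 on the J arrays. It lay between -3.47 and -3.07 on the F1 arrays and between -3.60 and -2.94 on the E1 arrays, as low as in juveniles. On the F2 arrays it was up to 1.19 above the midpoint, on the F3 arrays 0.49 to 1.17, and on the male arrays 1.22 and 1.66. These probes were nearer the J level in 99.7% of cases in F1 and 88% in E1, but in 31.5% in F2, 33.3% in F3 and 25.9% in M. The combination of F1 near J with both F2 and F3 near E3 was held by 596 of them (50%), against 16.9% of all probes lower in J and 8.22% of those not called with a lower mean in J.

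The difference within the adult cycle was tested directly, in arrays that are neither J nor E3. Of the 1193 probes, 883 (74%) were higher in F2 than in F1 and 0 were lower, whereas 4.56% of all tested probes were higher. In F3, 878 (73.6%) were higher than in F1 and 4 were lower, whereas 7.39% of all tested probes were higher. In M, 887 (74.4%) were higher than in F1 and 5 were lower, whereas 12% of all tested probes were higher. In E1, 173 (14.5%) were higher than in F1 and 85 lower, below the 26.6 and 25.4% of all tested probes. Of all 10131 probes lower in J, 24.2% were higher in F2, 28.1% in F3 and 40.5% in M than in F1. These counts share the F1 arrays and are not independent of each other. Without the 4 arrays of slide 1, which hold E3 replicate 2 and 1 F1 array, 955 of the same probes were higher in F2 and 956 in F3 than in F1. The median difference from F1 over the 1193 probes was 4.47 in F2, 3.96 in F3 and 4.41 in M. The spike-ins stood at 15.10 to 15.52 in F2, 15.62 to 16.05 in F3, 14.84 and 16.50 in M, and 13.74 to 15.38 in F1, so their differences were smaller than these medians. Most of the probes that were strongly lower in juveniles than in late embryos were thus low in females that had just moulted and higher in females midway to the next moult, in those close to it and in males.

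**Figure D4:**
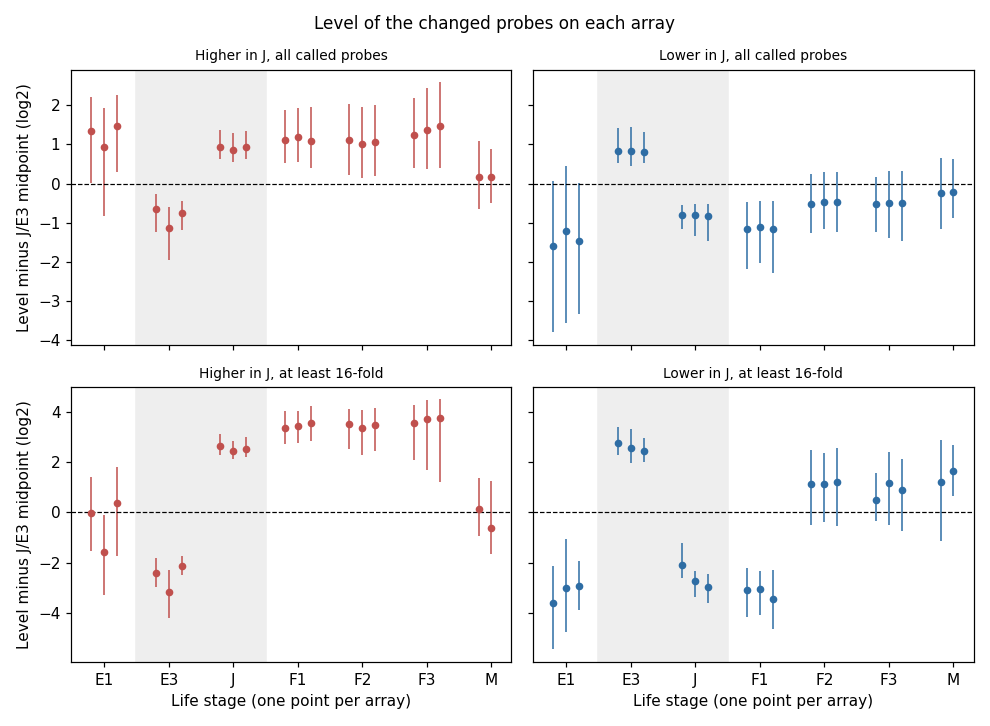
Median (point) and interquartile range (bar) over probes of the level minus the midpoint of the J and E3 means (log2) on each of the 20 arrays, for all probes called higher or lower in J (upper panels) and for those changed at least 16-fold (lower panels), with E3 and J shaded. In the lower right panel the median of the 1193 probes lies below the midpoint in J, F1 and E1 and above it in E3, F2, F3 and M. The bars of F2, F3 and male replicate 1 reach below the midpoint.

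The counts changed with the processing, from 7207 probes under the methods' t-test to 37387 without the 4 arrays of slide 1. The share higher in J lay between 51.7 and 64.9% in every setting but spike-in scaling, where it was 6.52%. Over the 6 fits that left out 1 J or E3 array, 20097 to 24823 probes were called. A plain scaling to the 75th percentile gave 28635 probes, of which 52.3% were higher in J, against 60.9% of the 25881.

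**Figure D5:**
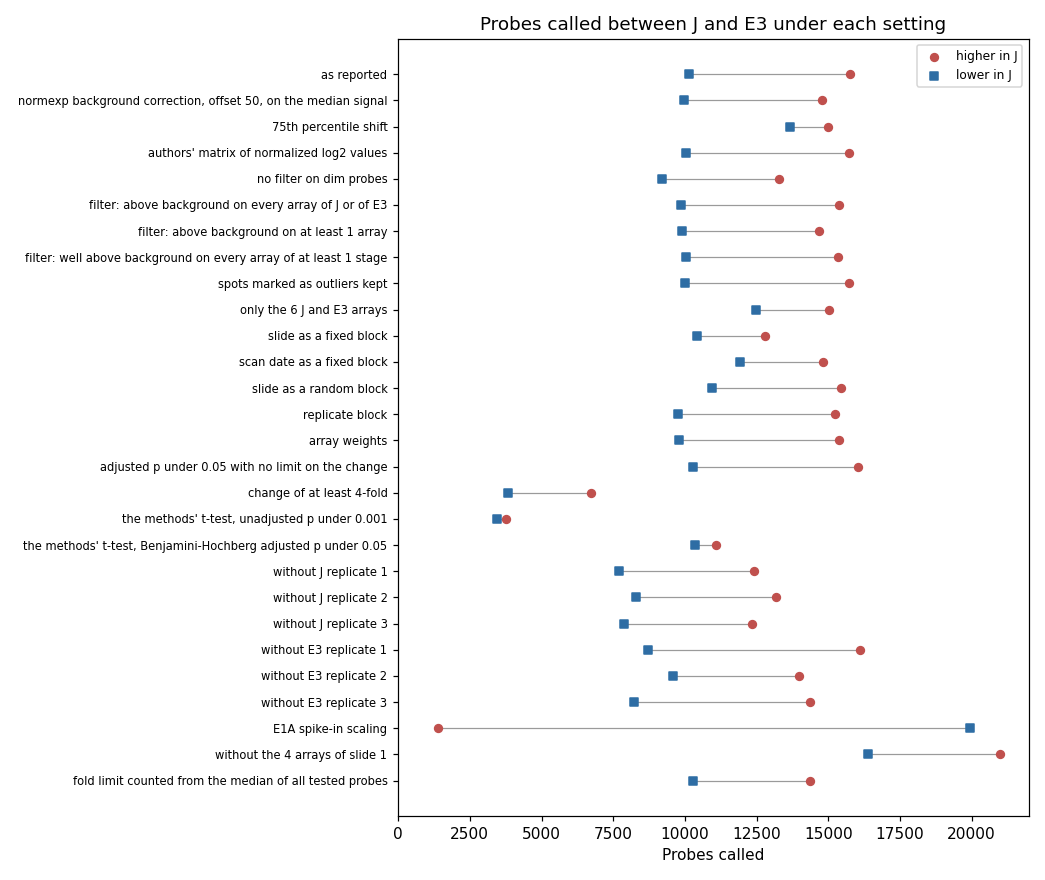
Number of probes called higher (circles) and lower (squares) in J on the x axis, under each setting down the page, from the values as reported to those chosen after seeing the data. Higher probes outnumber lower ones in each row except spike-in scaling, which gives 1389 higher and 19926 lower.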

How the data were processed

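RNA of whole *D. magna* was hybridised by the authors to single-colour Agilent arrays. The authors deposited scanner output, in which each spot has an intensity extracted from the image by Agilent Feature Extraction, version 10.5.1.1 in the file headers, with the local background taken off. A second deposited file holds log2 values for the 20 arrays. Compared with the scanner output, these were quantile normalized and centred on the median of each probe. It gives no order between probes and was used as an alternative. The number of arrays limits the precision, and between 27.7 and 46% of the probes exceeded background on a J or E3 array.

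Outlier and control spots were left out, log2 intensity was averaged over the spots of a probe, and quantile normalization was run over the 20 arrays (limma 3.58.1 and R 4.3.3, with the data.table package in version 1.17.8, pandas 2.3.3 and numpy 2.4.6 in Python 3.11.15, and matplotlib 3.10.9 for the plots). Background was the percentile 95 of the random probes of each array. All 20 arrays entered 1 limma fit with 7 stage groups, which pools the spread of all stages, since a t-test on 3 arrays against 3 estimates it poorly, and p-values were adjusted by Benjamini-Hochberg over all tested probes of a contrast. The procedure was tested on simulated data. Samples were grouped by their labels. Saturated spots were kept, and 5 slides of 4 arrays, scanned on 3 days, were tried as blocks.

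Gene models were named by a rule: the 2 in each direction with at least 3 tested probes, all called the same way with and without E3 replicate 2, whose weakest probe changed most. The comparison, the lists and the stages followed were chosen with earlier results of these data known. The comparisons of E1, F2, F3 and M with F1 were added after the levels in those stages had been seen. Alternatives changed the background correction, the scaling, the filter, the blocks, the test, its limits and the arrays. Functional groups and measurements by qPCR were not analysed here.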

Additional observations from a re-analysis of the deposited data

How the results depend on the processing

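Of the 118 counts and shares of J against E3 recomputed under other settings, 104 stayed within the limits set for a like value. Those limits were wide. Totals of 37387 probes without slide 1 and of 21315 under spike-in scaling both counted as like the 25881. Of the 21315, only 11373 were shared with the 25881. A limit of 4-fold left 10523 probes (6710 higher, 3813 lower in J) of 5334 gene models. The methods' t-test at an unadjusted p under 0.001 left 7207 probes (3769 higher, 3438 lower) of 4299 gene models, and after Benjamini-Hochberg adjustment 21417, 51.7% of them higher. Under that unadjusted limit the 2 named gene models that were higher in J were not called. Spike-in scaling gave 1389 higher and 19926 lower, and leaving out the 4 arrays of slide 1 gave 16388 lower of 37387 called. Both of these, the limit of fold counted from the median of all tested probes (24663 called) and the counts against F1 were chosen after seeing the data. Probes seen only in J or only in E3 numbered 3769 and 248 by the scanner's flag for signals well above background, and those only in E3 numbered 2328 without E3 replicate 2.

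The remaining alternatives for the background, filter, blocks, weights and scaling called between 22495 and 28635 probes. The iteration for array weights did not converge. Leaving out each J or E3 array in turn called 20097 to 24823 probes, 12353 to 16121 higher and 7687 to 9597 lower, of 9819 to 12031 gene models. The labels number the replicates alike in J and E3, but same-numbered arrays did not deviate together (correlations of 0.03, 0.01 and -0.02), so the numbers were not taken as pairs. With the replicate block 24994 probes were called. Dim probes and 3 arrays per stage limit what can be told, and for 63.5% of the tested probes neither a change nor its absence within 1.5-fold was shown.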
